A study of Mus musculus with 6 samples.

Results

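The distal tubule and collecting duct genes described here are a set of 10 genes (Slc12a1, Umod, Egf, Slc12a3, Calb1, Pth1r, Aqp2, Aqp3, Atp6v0d2 and Car12) that were chosen by their high levels in some of these libraries. Because the values below chose the genes, they are given as a description, without a test. A level could be assigned to 7 of the 10 genes, among 10913 genes with a level in all. Slc12a1, Umod and Aqp2 received no value, for the reason given below.

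The libraries are bulk RNA-seq of C57BL/6 mice labelled as intervertebral disc, the pad of cartilage and gel between vertebrae, with 3 wild type libraries and 3 libraries that the labels call intervertebral disc degeneration. The labels name no way of bringing about degeneration, no allele, no agent and no count of animals, so the 3 libraries of a group may be technical replicates and a p-value measures only the spread between libraries. The design text gives an age of 21 days and speaks of retinal RNA, whereas each sample's own label says disc. All groups share the strain and the labelled tissue. The question posed by the groups is how gene expression differs with the degeneration label.

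As background, the distal part of the kidney tubule takes up salt and divalent ions that the proximal tubule leaves behind, and the collecting duct then sets the final water and acid content of urine. The thick ascending limb reabsorbs sodium, potassium and chloride, the distal convoluted and connecting tubules reabsorb sodium chloride and calcium, principal cells of the collecting duct move water and sodium, and intercalated cells move acid and base. None of these segments is part of a disc, although a few of the genes are also expressed elsewhere: Pth1r in bone and cartilage, Car12 in the nucleus pulposus and Atp6v0d2 in osteoclasts.

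The deposited rows had first to be tied to genes by position. The 53546 rows of the count files carry gene names and exon intervals, and most intervals lie away from where GRCm38 places that gene. The row named Egf, for example, has the length of the annotated exons of Egf, 11275 bases, but begins 206351 bases ahead of the gene, has no base on its exons, and held 0 to 2 counts in a library. The rows named Umod, Aqp2 and Car12 held 0 to 1 count in a library, and none of the 3 has a base on exons of its gene. A row was therefore given the name of the gene under it, as annotated by GENCODE M21 on GRCm38, where at least 80% of its exon bases, and at least 100 bases, lay on that gene. This rests on the assumption that reads were placed on GRCm38, since the build of the alignment is not given in the sources used here. Calb1, Aqp3 and Atp6v0d2, all on chromosome 4, lay under rows of their own name with every annotated exon base covered, and are called in register.

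Of the other 4 genes with a value, only part of the exons was counted, and much of each row lay outside exons. Egf (chr3:129677565-129755316, minus strand) was counted by the row named Casp6 over 1001 of its 11275 exon bases. Of these, 411 are coding bases of exons 14, 17 and 18, and the rest lie in annotated transcripts with a retained intron or subject to nonsense-mediated decay. Another 4583 bases of the row lay on introns of Egf. Slc12a3 (chr8:94329201-94366214, plus strand) was counted by the row named Gm45708 over 1146 bases, none of them coding, all in a retained-intron transcript at chr8:94354107-94355252. That row also covered 275 exon bases of the neighbouring gene Nup93, so Slc12a3 held 80.6% of the row's exon bases, just inside the threshold.

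Pth1r (chr9:110722085-110747145, minus strand) was counted by the rows named Als2cl and Gm43127 over 1135 of 2925 exon bases. These rows overlap each other. Car12 (chr9:66713686-66766845, plus strand) was counted by the row named Rab8b over 1095 of 7597 exon bases, of which 429 are coding bases of exons 5 to 8. The genes in register were Calb1 (chr4:15881264-15908064, plus strand, 4846 bases), Aqp3 (chr4:41092722-41098183, minus strand, 1829 bases) and Atp6v0d2 (chr4:19876841-19922605, minus strand, 2716 bases).

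**Figure D1:**
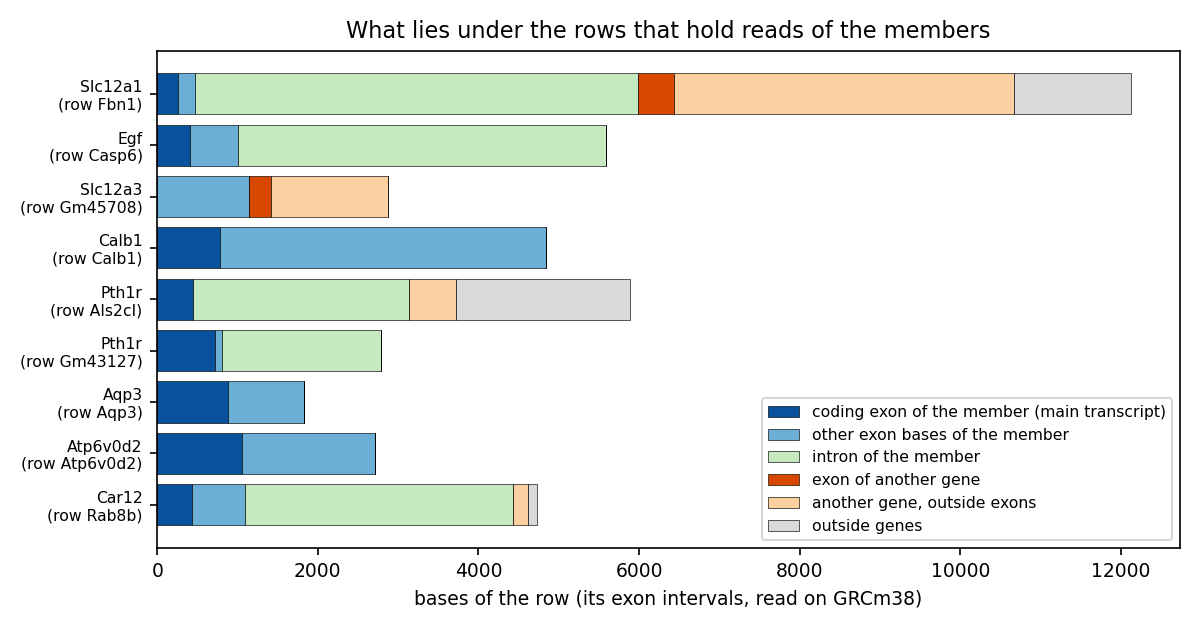
Bases of each count row that holds reads of the genes, by what lies under them on GRCm38 (x axis, bases; each bar is 1 row, named in brackets). The rows of Calb1, Aqp3 and Atp6v0d2 lie wholly on exons of these genes, whereas the row of Egf holds 1001 exon bases beside 4583 intron bases and the row of Slc12a3 holds no coding base.

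To show what was counted under a foreign name, the longest coding stretch counted for Egf, and 1 coding stretch each for Car12 and Pth1r, are printed. They run 5′ to 3′ on the gene's strand, from GENCODE M21 transcripts (GRCm38). Capitals mark the counted stretch, and the 10 lower-case bases on either side are the adjoining bases of the transcript. The counted stretch of Egf exon 14 is at chr3:129707209-129707376, of Car12 exon 5 at chr9:66750946-66751025 and of Pth1r exon 5 at chr9:110727678-110727796. That of Car12 begins at the first base of its row, so exon 5 may begin earlier and be counted only in part.
Egf exon 14, row named Casp6: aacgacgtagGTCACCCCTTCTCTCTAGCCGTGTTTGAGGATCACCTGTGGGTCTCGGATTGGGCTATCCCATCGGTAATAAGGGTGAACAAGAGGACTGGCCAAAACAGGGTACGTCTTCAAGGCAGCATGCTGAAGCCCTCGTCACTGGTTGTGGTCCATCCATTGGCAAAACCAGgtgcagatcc
Car12 exon 5, row named Rab8b: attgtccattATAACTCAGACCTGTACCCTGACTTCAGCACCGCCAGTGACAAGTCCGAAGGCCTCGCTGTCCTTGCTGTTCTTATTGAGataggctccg
Pth1r exon 5, row named Als2cl: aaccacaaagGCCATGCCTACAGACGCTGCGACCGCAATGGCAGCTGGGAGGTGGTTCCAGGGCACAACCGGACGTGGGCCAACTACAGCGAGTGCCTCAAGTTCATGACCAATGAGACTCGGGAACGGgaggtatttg

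The 6 libraries held 3119215 to 4009562 counts each, and levels are given in CPM, the usual scaling of a count to the size of its library. The floor of detection was set at 3 counts, or 0.748 to 0.962 CPM depending on the library; floors and intervals here cover counting error only, since reads are not independent molecules. For all 7 genes degeneration 2 and 3 stood far above wild type 1 to 3, and degeneration 1 stood near the wild type libraries. The degeneration group therefore does not share one level, and its mean and SD span these libraries. In bulk libraries, fewer cells of a type and less RNA per cell cannot be told apart.

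Of the thick ascending limb genes, Egf encodes the precursor of epidermal growth factor, a membrane protein of distal tubule cells. It read 9.73, 12.9 and 17.8 CPM across wild type 1, 2 and 3 and 20.5, 2621 and 2285 CPM across degeneration 1, 2 and 3 (39, 46, 59, 65, 9046 and 7128 counts). Degeneration 2 and 3 were high and the other 4 libraries low, and the groups did not overlap because degeneration 1 was slightly above wild type 3. On the log2(CPM + 1) scale the labelled groups stood at 3.82 ± 0.40 and 8.98 ± 3.95 (SD, n = 3 each), a difference of 5.16, which was 7.44 without degeneration 1.

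Slc12a1, the furosemide-sensitive sodium, potassium and chloride cotransporter (chr2:125152505-125230002, plus strand), did not meet the threshold. The row nearest to it is the row named Fbn1, of whose exon bases 475, or 51.6%, lay on Slc12a1, with 445 on Fbn1 and Gm14002. That row read 53.4, 36.6 and 19.9 CPM across wild type 1, 2 and 3 and 22.7, 2913 and 3225 CPM across degeneration 1, 2 and 3. Its reads cannot be divided among the 3 genes, so these are values of the row and not of Slc12a1. Umod, which encodes uromodulin, a protein secreted into urine (chr7:119462711-119479282, minus strand), lay under no row that met the threshold.

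Slc12a3, the thiazide-sensitive sodium chloride cotransporter of the distal convoluted tubule, read 19.5, 13.7 and 19.3 CPM across wild type 1, 2 and 3 and 20.2, 1440 and 1019 CPM across degeneration 1, 2 and 3. Degeneration 2 and 3 were high, and the groups were separated only by the small step between wild type 1 (19.5 CPM) and degeneration 1 (20.2 CPM). The group levels were 4.19 ± 0.27 and 8.30 ± 3.38 on the log2(CPM + 1) scale (SD, n = 3 each), a difference of 4.11, which was 6.05 without degeneration 1. Exons of Nup93 share the row, and their part in these reads was not tested.

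Calb1 encodes calbindin, the intracellular calcium carrier of the distal convoluted and connecting tubules. It had 1 count in wild type 1, none in wild type 2, wild type 3 and degeneration 1, and 4640 and 3266 counts in degeneration 2 and 3. In CPM these were 0.249 in wild type 1 and 1344 and 1047 in degeneration 2 and 3, and the 4 low libraries all lay under the floor. The groups overlapped, since degeneration 1 had no count. The group levels were 0.11 ± 0.19 and 6.81 ± 5.90 on the log2(CPM + 1) scale (SD, n = 3 each), a difference of 6.70, which was 10.11 without degeneration 1. With wild type at the floor, the size of this difference rests on the added 1 CPM.

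Pth1r encodes the receptor of parathyroid hormone, which raises calcium uptake in the distal tubule and also acts on the proximal tubule and bone. It read 35.9, 35.5 and 19.0 CPM across wild type 1, 2 and 3 and 25.2, 597 and 462 CPM across degeneration 1, 2 and 3. Degeneration 1 lay within the wild type range, so the groups overlapped, and the wild type libraries were well above the floor, with 63 to 144 counts. The group levels were 4.91 ± 0.51 and 7.60 ± 2.51 on the log2(CPM + 1) scale (SD, n = 3 each). The difference of 2.69 was the smallest of the 7 genes, and was 4.13 without degeneration 1.

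Aqp3, a water and glycerol channel of the basolateral membrane of principal cells, had 1 count in wild type 1, none in the other wild type libraries, 1 in degeneration 1, and then 763 and 654 in degeneration 2 and 3. The last 2 correspond to 221 and 210 CPM. The groups did not overlap, but only through the single count of degeneration 1, which is under the floor. The group levels were 0.11 ± 0.19 and 5.30 ± 4.25 on the log2(CPM + 1) scale (SD, n = 3 each), a difference of 5.20, which was 7.65 without degeneration 1. Aqp2, the vasopressin-regulated water channel of the apical membrane (chr15:99579055-99584547, plus strand), lay under no row that met the threshold.

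Of the intercalated cell genes, Atp6v0d2 encodes the d2 subunit of the vacuolar proton pump. It read 7.98, 1.68 and 0.603 CPM across wild type 1, 2 and 3 and 0.315, 247 and 215 CPM across degeneration 1, 2 and 3. Wild type 1 was the highest of the 4 low libraries with 32 counts, degeneration 1 the lowest with 1 count, and the groups overlapped. The group levels were 1.76 ± 1.28 and 5.37 ± 4.31 on the log2(CPM + 1) scale (SD, n = 3 each), a difference of 3.61, which was 6.10 without degeneration 1.

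Car12 encodes carbonic anhydrase 12, a membrane enzyme that interconverts carbon dioxide and bicarbonate outside the cell. It read 0.998, 0 and 0.603 CPM across wild type 1, 2 and 3 and 0.945, 407 and 382 CPM across degeneration 1, 2 and 3. The groups overlapped, and the 4 low libraries held 0 to 4 counts. The group levels were 0.56 ± 0.51 and 6.07 ± 4.43 on the log2(CPM + 1) scale (SD, n = 3 each), a difference of 5.51, which was 8.07 without degeneration 1.

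The groups did not overlap for 3 of the 7 genes, Egf, Slc12a3 and Aqp3, where 12.4% of the 6485 genes with a mean of at least 1 CPM had all 3 degeneration values above all 3 wild type values. Nothing is read from this count, since the genes were selected on these levels. In the 4 low libraries, Pth1r, Slc12a3 and Egf, whose rows hold intron or exons of another gene, stood at 9.73 to 35.9 CPM, whereas Calb1 and Aqp3, whose rows hold only their own exons, had at most 1 count. Car12, whose row also holds intron, had 0 to 4 counts there, and Atp6v0d2, in register, 1 to 32. Levels of different genes can be compared per length only for the genes in register: in degeneration 2 and 3, Calb1 stood at 277 and 216 CPM per kb of exon, Aqp3 at 121 and 115, and Atp6v0d2 at 91.1 and 79.3. Aqp3 and Atp6v0d2 were closer to each other than either was to Calb1.

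**Figure D2:**
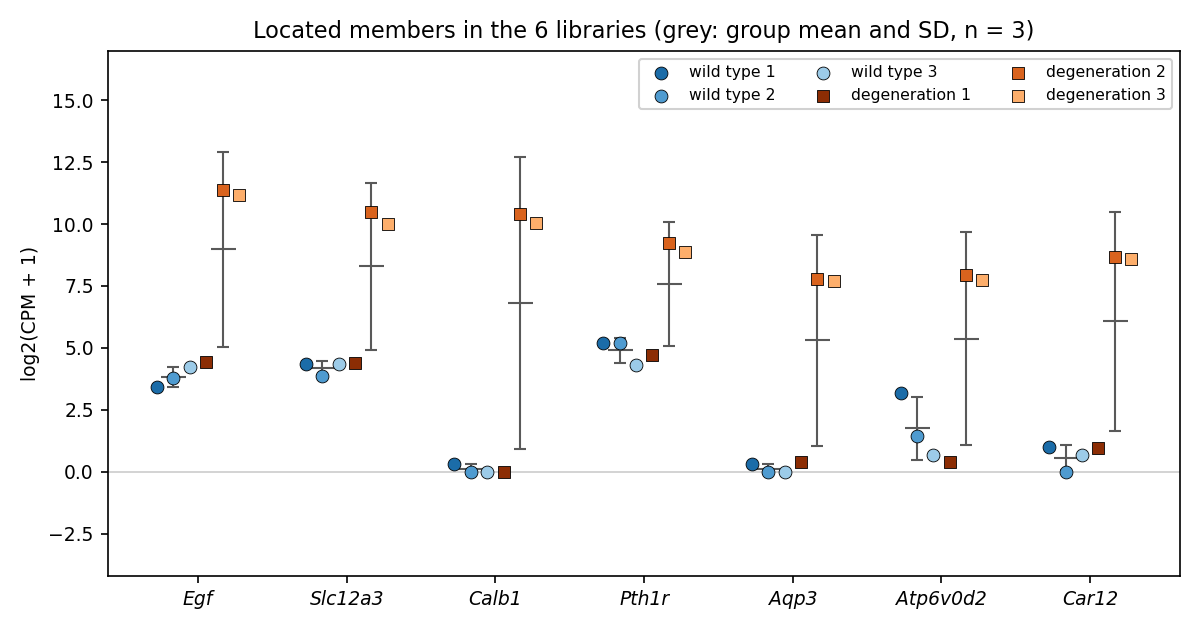
Level of each located gene in each library as log2(CPM + 1) (circles, wild type; squares, degeneration; grey bars, group mean and SD, n = 3). Degeneration 2 and 3 lie high for all 7 genes, degeneration 1 lies beside the wild type libraries, and the SD of the degeneration group runs from 2.51 to 5.90 on this scale.

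Between the high libraries, the genes differed in how far degeneration 3 stood below degeneration 2. Expressed as the CPM of degeneration 3 divided by that of degeneration 2, with an exact 95% interval, the ratio was 0.708 (0.677 to 0.740) for Slc12a3, 0.774 (0.723 to 0.828) for Pth1r and 0.779 (0.745 to 0.815) for Calb1. These 3 genes of the distal convoluted and connecting tubule list lay below the lower quartile, 0.895, of the 1749 genes with at least 200 counts in both libraries. The median of those 1749 genes was 0.971. Egf, at 0.872 (0.845 to 0.8996), and Atp6v0d2, at 0.871 (0.786 to 0.965), lay just below that quartile.

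Car12, at 0.940 (0.869 to 1.02), and Aqp3, at 0.949 (0.853 to 1.05), had intervals that reached 1. Of the genes described below, Tmem52b of the distal convoluted tubule list had a ratio of 0.615 (0.576 to 0.657), and Pkhd1, expressed along the tubule and collecting duct, had a ratio of 1.17 (1.11 to 1.24). The median ratio was 0.779 over 11 genes of the distal convoluted and connecting tubule list, 0.949 over 5 principal cell genes, 0.901 over 7 intercalated cell genes and 1.05 over 4 tubule transcription factor and cadherin genes, members included. Slc26a4, the chloride and bicarbonate exchanger of one type of intercalated cell, was lower than most of its list at 0.724 (0.630 to 0.832). Proximal tubule markers also had low ratios, with a median of 0.854 over 7 genes, 0.718 for Lrp2 and 0.641 for Cyp2e1, though 1.52 for Slc5a12; a low ratio is therefore not particular to the distal genes. These ratios compare a pair of libraries of one labelled group, were computed after the values were seen, and carry no replicate error.

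Other genes of the distal nephron were taken from 5 lists, by segment, of 101 genes beside the 10 described ones. Of these 101 genes, 39 could be located by position, 2 of them in register, and 38 had a mean of at least 1 CPM. The highest of the 6 values lay in degeneration 2 or 3 for 36 of the 38, where it did so for 62.1% of all 6485 genes at that level. Of the 38, however, 19 reached that level only through degeneration 2 and 3 and had to be highest there, so nothing is read from the count. The other 19 had a mean of at least 1 CPM over wild type 1 to 3 and degeneration 1, and 17 of them were highest in degeneration 2 or 3. No share over all genes chosen in that way stands beside this count, so nothing is read from it either. No count was found in wild type 1 to 3 and degeneration 1 for 8 genes with counts in degeneration 2 or 3, which allows up to 0.748 to 0.945 CPM in those 4 libraries.

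Of the thick ascending limb list, 4 of 16 genes were located. Ptger3, a prostaglandin E2 receptor, reached 30.1 CPM in degeneration 2 and 43.3 CPM in degeneration 3, and Tmem207, a small membrane protein, 26.4 and 31.1 CPM; neither had a count elsewhere. Irx1, a homeobox transcription factor, read 4.99, 0.839 and 3.32 CPM across wild type 1, 2 and 3 and 3.15, 17.4 and 26.0 CPM across degeneration 1, 2 and 3.

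Of the distal convoluted and connecting tubule list, 11 of 24 genes were located. Tmem52b, a membrane protein, had no count in the 4 low libraries and reached 733 CPM in degeneration 2 and 451 CPM in degeneration 3. Kl, which encodes klotho, the co-receptor of fibroblast growth factor 23, had a wild type range of 13.7 to 16.3 CPM, with degeneration 1 at 17.9 CPM, degeneration 2 at 231 CPM and degeneration 3 at 210.0 CPM. The list also holds genes with a level in every library: Atp2b4, a plasma membrane calcium pump, ranged from 85.8 to 105 CPM in wild type libraries and from 76.5 to 89.2 CPM in those of degeneration, and Oxsr1, a kinase that activates Slc12a3, at 52.4 to 60.1 CPM and 55.4 to 70.2 CPM.

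Of the principal cell list, 6 of 21 genes were located. Scnn1b, the beta subunit of the epithelial sodium channel, had a wild type range of 1.496 to 3.64 CPM, with degeneration 1 at 3.15 CPM, degeneration 2 at 145 CPM and degeneration 3 at 144 CPM. Its alpha subunit Scnn1a reached 106 CPM in degeneration 2 and 90.1 CPM in degeneration 3, with at most 1.25 CPM elsewhere. The epithelial keratins Krt7 and Krt8 reached 141 and 127 CPM in degeneration 2, against 129 and 125 CPM in degeneration 3 and at most 1.21 CPM elsewhere.

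Of the intercalated cell list, 10 of 22 genes were located. Slc4a1, the basolateral chloride and bicarbonate exchanger, had a wild type range of 4.24 to 8.95 CPM, with degeneration 1 at 3.46 CPM, degeneration 2 at 154 CPM and degeneration 3 at 127 CPM. Slc26a4 reached 151 CPM in degeneration 2 and 109 CPM in degeneration 3, with at most 1.96 CPM elsewhere. The proton pump subunits Atp6v0a4 and Atp6v1b1 reached 130 and 114 CPM in degeneration 2, then 145 and 119 CPM in degeneration 3, with at most 2.24 CPM elsewhere. Slc4a1 and Slc26a4 were thus both high in degeneration 2 and 3, and which cells these reads came from was not tested.

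Of the tubule transcription factors and cadherins, 8 of 18 genes were located. Pkhd1, which encodes fibrocystin of the primary cilium, reached 653 CPM in degeneration 2 and 766 CPM in degeneration 3, with 1 count in wild type 3 alone among the others. Cdh1, the epithelial cadherin, stood at 528 and 494 CPM against at most 0.499 CPM. Grhl2, a transcription factor of epithelia, had a wild type range of 9.79 to 13.97 CPM, with degeneration 1 at 9.76 CPM, degeneration 2 at 71.0 CPM and degeneration 3 at 81.1 CPM.

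**Figure D3:**
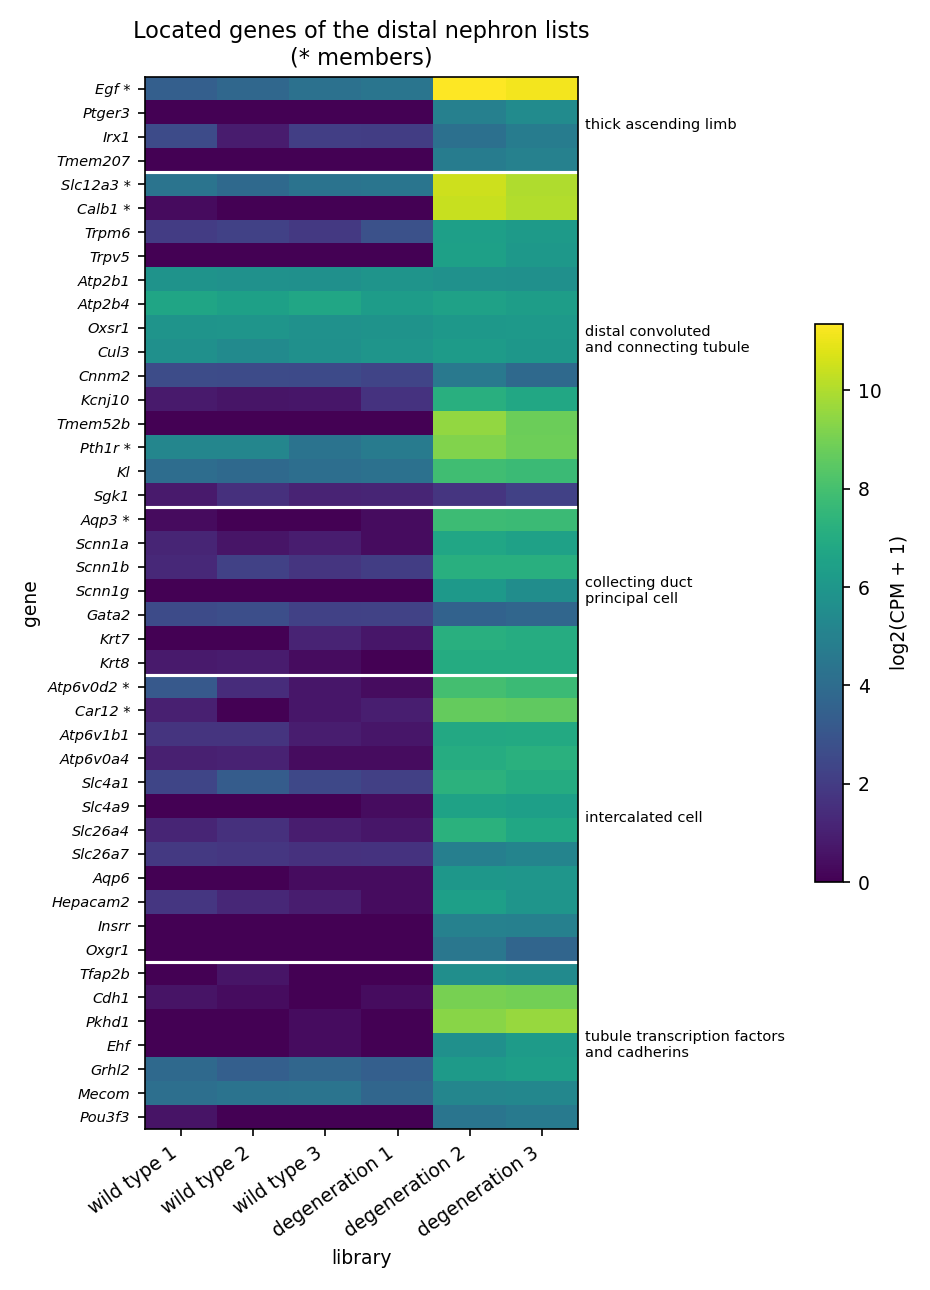
Level of located genes of the 5 distal nephron lists in each library, as log2(CPM + 1) by colour (rows, genes by segment, the described genes starred; columns, libraries). Most rows are dark in wild type 1 to 3 and degeneration 1 and bright in degeneration 2 and 3, with Atp2b1, Atp2b4, Oxsr1 and Cul3 near one level throughout.

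The list genes were tested in a fit over all genes by edgeR's quasi-likelihood test with Benjamini-Hochberg adjustment. With all 6 libraries, 0 of the 13 list genes that met its count filter passed at an adjusted p under 0.05, as did 0.0% of all 5434 genes tested. At an unadjusted p under 0.05 there were 7 of the 13, against 1064 genes (19.6%) in all. The median log2 fold change was 1.13 over the 13 list genes, of which 10 were above 0, and -0.00 over all genes tested. The lists were chosen with earlier results of these data known, so nothing is read from this median or the unadjusted count against all genes. The log2 fold change was 2.997 ± 0.80 (SE) for Kl and 4.91 ± 1.29 for Scnn1b, with an adjusted p of 0.232 for each (edgeR). DESeq2 called 22 of 38 list genes, all 22 higher in degeneration, and called 6.79% of 6172 genes higher. Many of these 38 genes have counts almost only in degeneration 2 and 3 and entered the test through them, so nothing is read from the DESeq2 count against that share.

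These counts changed when degeneration 1 was left out. Without it, edgeR called 33 of 37 list genes higher and 2 lower, against 26.8% of 5969 genes higher and 26.2% lower. By list, 3 of 3 thick ascending limb genes, 6 of 6 principal cell genes, 10 of 10 intercalated cell genes and 8 of 8 transcription factors and cadherins were higher, and of 10 distal convoluted and connecting tubule genes 6 were higher and 2 lower. Of the 37 genes, 25 met the count filter only through degeneration 2 and 3 and had to differ, so that the count is no support for the list. Of the 13 genes tested in both fits, 9 were higher, 2 were lower and 2 did not pass. No share over all genes tested in both fits stands beside this count. Scnn1b, among the 13, also met the filter of this fit only through degeneration 2 and 3, so nothing is read from the count.

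In the fit without degeneration 1, Kl rose by a log2 fold change of 3.46 ± 0.15 (SE), with an adjusted p of 2.9e-08, and Scnn1b by 5.44 ± 0.25, with an adjusted p of 3.8e-08 (edgeR). Scnn1b, with 6, 13 and 8 counts in wild type 1 to 3, met the count filter of this fit only through degeneration 2 and 3. Nothing is therefore read from its p. Atp2b4 and the related pump Atp2b1 fell by 0.61 ± 0.15 and 0.45 ± 0.15 on the log2 scale, with adjusted p of 0.0053 and 0.026 (edgeR). In CPM the values of degeneration 2 and 3 were closer to those of wild type: Atp2b1 had 51.9 and 51.3, inside the wild type range of 50.3 to 56.6. Atp2b4 had 89.2 and 80.1, of which the first lies inside the wild type range of 85.8 to 105. The lists were chosen with earlier results of these data known, and this fit keeps only the degeneration libraries that stand apart. Nothing is therefore read from the p of Kl, Atp2b4 or Atp2b1 either.

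Markers of some other cell types moved with the same libraries, and their part in the values above was not tested. Summed per kb of covered exon, proximal tubule markers (8 of 21 located, led by Lrp2, Slc34a1 and Cubn) stood at 2.002 to 2.41 CPM per kb in wild type and at 2.15, 1032 and 840 in degeneration 1 to 3. Markers of heart and striated muscle (7 of 16, led by Myh6, Ttn and Ryr2) moved the other way, with 4146 to 4511 in wild type and 4608, 4.68 and 4.48 in degeneration 1 to 3. Podocyte markers (4 of 10) stood at 39.5 to 46.0 in wild type and 25.8 to 32.5 in degeneration, a sum led by Plce1. The list was split, since Ptpro was higher in degeneration 2 and 3 (22.3 and 20.8 CPM) than elsewhere (3.91 to 5.73 CPM). Magi2 was also higher there (10.7 and 15.7 CPM) than elsewhere (5.31 to 6.33 CPM). Synpo, at 20.6 and 17.3 CPM there, lay inside the range of the other libraries (15.7 to 54.8 CPM). Markers shared with the distal nephron lists were left out of these sums, 3 of 11 for notochord and nucleus pulposus and 1 of 9 for bone cells. Of those left out, Krt8, Car12 and Pth1r were located, and all were high in degeneration 2 and 3, as given above. The 3 notochord and nucleus pulposus markers that were located and not shared stood at 9.87 to 18.0 in wild type. In degeneration 1 to 3 they stood at 13.9, 178 and 184, nearly all from Cd24a, while Krt19 had no count and Noto at most 0.321 CPM. Cartilage and disc matrix markers (6 of 16) stood at 7.31 to 8.28 in wild type and 5.76 to 11.1 in degeneration, and Acan, the main proteoglycan of disc and cartilage, at no more than 0.499 CPM in any library. Within that sum, Sox5 was higher in degeneration 2 and 3 (20.9 and 29.5 CPM) than elsewhere (10.1 to 12.4 CPM). Col11a2 was lower there (0.869 and 1.28 CPM) than elsewhere (3.78 to 9.98 CPM). Endothelial markers (5 of 8) stood at 214 to 260 and 101 to 164, macrophage markers (5 of 9) at 79.1 to 131 and 64.9 to 78.9, bone cell markers (2 of 9) at 80.8 to 349 and 30.01 to 71.2, and adipocyte markers (2 of 5) at no more than 0.246, in wild type and degeneration in that order. For endothelial, macrophage and bone cell markers, degeneration 1 gave the upper end of the degeneration range. Macrophage and bone cell sums also differed among wild type libraries, from 131 and 349 in wild type 1 to 79.1 and 80.8 in wild type 3. Among macrophage markers, Csf1r went against the sum, with 64.9 to 68.8 CPM in wild type and 114 and 96.8 CPM in degeneration 2 and 3.

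**Figure D4:**
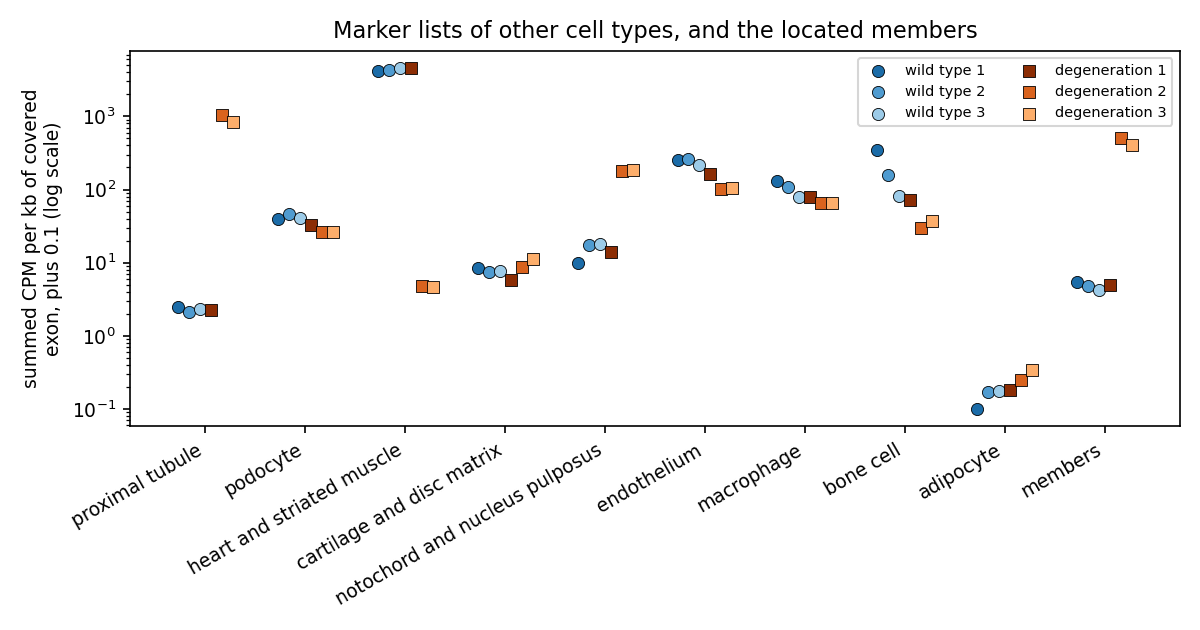
Summed level of the located genes of each marker list and of the described genes (labelled members). Markers shared with the distal nephron lists are left out of the marker lists. The y axis gives CPM per kb of covered exon plus 0.1 on a log scale (circles, wild type, and squares, degeneration). The described genes stand at 499 and 408 CPM per kb in degeneration 2 and 3 and at 4.16 to 5.42 in the others. The proximal tubule list is high in the same libraries, and the muscle list lies high in the libraries where both are low. Many rows also hold bases outside exons, so a list can be compared between libraries but not with another list.

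By the profile over the 6 libraries, the genes most like the mean of the 7 located genes came from outside the distal nephron lists. Likeness was the root mean square difference of centred log2(CPM + 1), among 3174 genes with a mean of at least 5 CPM and at least 500 covered exon bases. The closest was Cubn, the endocytic receptor cubilin, with a difference of 0.155, followed by Slc22a7, an organic anion transporter, with 0.199. Gm15318, an antisense transcript, followed with 0.202, the homeobox gene Hoxa9 with 0.206 and Acnat2, an acyltransferase, with 0.215. The located genes themselves lay 0.269 (Aqp3) to 1.44 (Calb1) from their own mean, with Aqp3 the closest and Calb1 the farthest. The likeness rests on 6 libraries, of which degeneration 2 and 3 stand apart.

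Promoters were read as the 250 bases before the gene start in RefSeq (GRCm38.p6), where 5 of the 7 located genes had 8 entries. The letters TATAAA, the core of the TATA box, occurred on either strand in 2 of these 8 windows, 1 of Aqp3 and 1 of Slc12a3, and in 12.4% of 32851 windows of all genes. The letters GGGCGG, the GC box, occurred in 5 windows of Aqp3, Car12, Pth1r and Slc12a3 and in 32.7% of all. The windows of Aqp3 (chr4:41098184-41098433, minus strand) and Slc12a3 (chr8:94328958-94329207, plus strand) are shown because they hold TATAAA (capitals) on the strand of the gene, starting 29 and 32 bases before the gene start. A match is a description of the letters, not of a site in use.
Aqp3: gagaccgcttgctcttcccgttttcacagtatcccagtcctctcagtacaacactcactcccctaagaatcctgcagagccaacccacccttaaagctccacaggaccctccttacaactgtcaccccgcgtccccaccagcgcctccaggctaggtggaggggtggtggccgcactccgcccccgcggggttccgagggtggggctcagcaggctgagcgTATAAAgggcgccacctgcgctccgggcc
Slc12a3: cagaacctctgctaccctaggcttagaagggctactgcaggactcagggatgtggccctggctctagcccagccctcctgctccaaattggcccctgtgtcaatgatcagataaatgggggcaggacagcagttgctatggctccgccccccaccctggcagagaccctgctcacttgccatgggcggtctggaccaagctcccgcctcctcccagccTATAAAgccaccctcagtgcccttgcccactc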

How the data were processed

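Counts were used as deposited. Per the file headers, the authors made them with featureCounts 2.0.1 as paired reads, over exons summed by gene name, with no strand option, so reads of overlapping antisense genes cannot be told apart. The submitters' processing notes list mm8, mm9 and Bowtie 0.12.2 and give no role for any of them; a further whole-series table has 12 value columns that match no sample label and were not used. The members and lists were chosen with earlier results of these data known.

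Rows were intersected with GENCODE M21 exons (bedtools 2.31.1, Python 3.11.15, pandas 2.3.3), and 13241 rows made 10913 loci, which held 49.8% to 58.7% of a library's counts. CPM used the file totals, 3119215 to 4009562 per library, so that 1 CPM is about 3 to 4 counts. Loci were tested with edgeR 4.0.16 in R 4.3.3 (quasi-likelihood, TMM, filterByExpr, all 6 libraries, no covariate, Benjamini-Hochberg threshold 0.05), with DESeq2 1.42.0 as an alternative. TMM factors ranged from 0.929 to 0.968, except in degeneration 2 and 3 (1.14 and 1.12), whose CPM are thus larger than TMM-scaled values. The procedure was tested on simulated data, drawn for both groups from wild type means and spread. These data lack the split within the degeneration group, so nothing is read from them about the fit with all 6 libraries. Exact intervals were computed in scipy 1.17.1.

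Named are the 10 members, up to 4 located genes per distal list and up to 3 per marker list by mean CPM, and the 5 loci most like the members. Atp2b1, Cul3, Cyp2e1, Slc5a12, Magi2, Acan, Noto and Krt19 were singled out for their values or as defining markers. Other settings were a filter on low counts, scaling, pseudocounts of 0.1 and 5 CPM, row shares of 50% and 95%, the replicate block and each library left out. Some results are not reported here.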

Additional observations from a re-analysis of the deposited data

How the results depend on the processing

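The edgeR count of loci called, 0 with all 6 libraries, was 511 with DESeq2 and ran from 0 to 3162 over the fits that left out 1 library each, the highest being without degeneration 1. For the list genes other than members, the count of 0 was 22 with DESeq2 and ran from 0 to 35, the highest again without degeneration 1. Leaving out degeneration 1 also took the common dispersion from 0.189 to 0.0233. Both counts were 0 with DESeq2 size factors, without a count filter, with a filter at a mean of 1 CPM, with row shares of 50% and 95%, and with the replicate block. The replicate block left 678 loci at an unadjusted p under 0.05, against 1064 without it. The labels give no pairing of the replicate numbers. Deviations of same-numbered libraries from their group means correlated at -0.07, 0.10 and -0.11 across loci. In the degeneration group these deviations largely follow the split of degeneration 1 from degeneration 2 and 3, so they cannot show whether libraries were paired. With 0 calls both with and without the block, the calls cannot show it either. None of the 90 recomputed level differences of the 7 located members fell below 0; they ran from 1.88 to 10.11 on the log2 scale, and from 4.13 to 10.11 without degeneration 1. The SD of the degeneration group is itself widened by degeneration 1 and is no measure of stability here. With TMM scaling, chosen after seeing the data, 34 list genes in place of 36 were highest in degeneration 2 or 3.

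The values rest on reading the rows as GRCm38 positions, on 3 to 4 counts per CPM and on rows that, for 4 of the 7 located members, lie in large part outside exons. Levels below 0.962 CPM were not detectable at this depth in every library. No alternative for FPKM was run, because the table was not used.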
